A study of Mus musculus with 6 samples.

Results

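The cytochrome P450 (Cyp) genes were followed in sciatic nerve of mice with and without a Schwann cell knockout of Ogt, the gene of the O-GlcNAc transferase. Members were the probes on the array whose gene symbol reads Cyp, a number, a letter and a number. The array held 112 such probes for 87 genes. A probe was kept if every array of 1 group or of both showed it well above background. That left 59 P450 probes for 51 genes, out of 24279 probes for 19051 genes on the whole array. The other 36 genes had no probe that passed, and of the 53 unkept probes, 46 rose well above background nowhere.

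RNA came from 3 pools of sciatic nerves of control littermates (Ctrl) and 3 pools from the knockout mice (OGT_SCKO), all aged 1 month, with the strain given as C56 BL6 in the labels. The driver of Cre, the deleted part of Ogt and how many animals made up a pool are not stated in the labels. The labels call the pools independent, and the p-values measure the spread between them. Values are log2 signals set against the 75th percentile of the same array, so 0 is the brightness of that percentile and a step of 1 is a factor of 2. Differences are taken between pools for the same probe.

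P450 enzymes hold a heme group and put an oxygen atom from molecular oxygen into fatty acids, sterols, steroids, retinoids and foreign compounds. Those of the endoplasmic reticulum take electrons from P450 oxidoreductase (Por), those of mitochondria from adrenodoxin (Fdx1) and its reductase. In peripheral nerve, Schwann cells are known for making steroids from cholesterol, a route that Cyp11a1 opens.

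The labels were checked first. Ogt read 0.46, 0.35 and 0.11 in Ctrl pools 1, 2 and 3, and -0.89, -1.01 and -1.01 in the OGT_SCKO pools. The groups did not overlap, and the log2 difference, OGT_SCKO minus Ctrl, was -1.28 (SE 0.13, limma adjusted p = 0.00109). Another probe of Ogt stood at 50.5% of Ctrl, and the labels do not say whether either probe lies in the deleted part. The 75th percentile was 2749 on the dimmest array, Ctrl 2, and 6136 on the brightest, OGT_SCKO 2, and between 58.9% and 65.2% of probes were well above background. Pearson's r between arrays over the 19051 genes tested, 1 probe each, was 0.979 to 0.995 within groups and 0.949 to 0.976 between them. The Schwann cell markers were all measured, and Prx and S100b among them fell, with a summed signal of 596 to 783 times the 75th percentile in Ctrl and 382 to 611 in OGT_SCKO. All 3 OGT_SCKO pools and Ctrl 2 were on 1 slide, Ctrl 1 and Ctrl 3 on the other. In whole nerve, fewer cells of a type and less RNA per cell cannot be told apart.

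Of the 51 P450 genes, 17 passed the test at a limma adjusted p under 0.05, which is 33.3%, against 23.3% of the 19051 genes tested. The direction was uneven: 4 P450 genes rose (7.84%, against 11.2% of all genes) and 13 fell (25.5%, against 12.1%). Cyp4b1, Cyp4a32, Cyp26b1 and Cyp4v3 were higher in OGT_SCKO nerve. Cyp2f2, Cyp2c44, Cyp4f14, Cyp2d12, Cyp2d22, Cyp2c29, Cyp2c65, Cyp2d11, Cyp17a1, Cyp4f16, Cyp2c38, Cyp2w1 and Cyp4f17 were lower. The median log2 difference was -0.48 over the 51 genes and -0.07 over all genes. A change of 2-fold or more that passed was seen in 10 of the 51 genes, against 6.70% of all genes. In 30 of the 51 genes the pools of the groups did not overlap, against 45.7% of all genes.

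**Figure D1:**
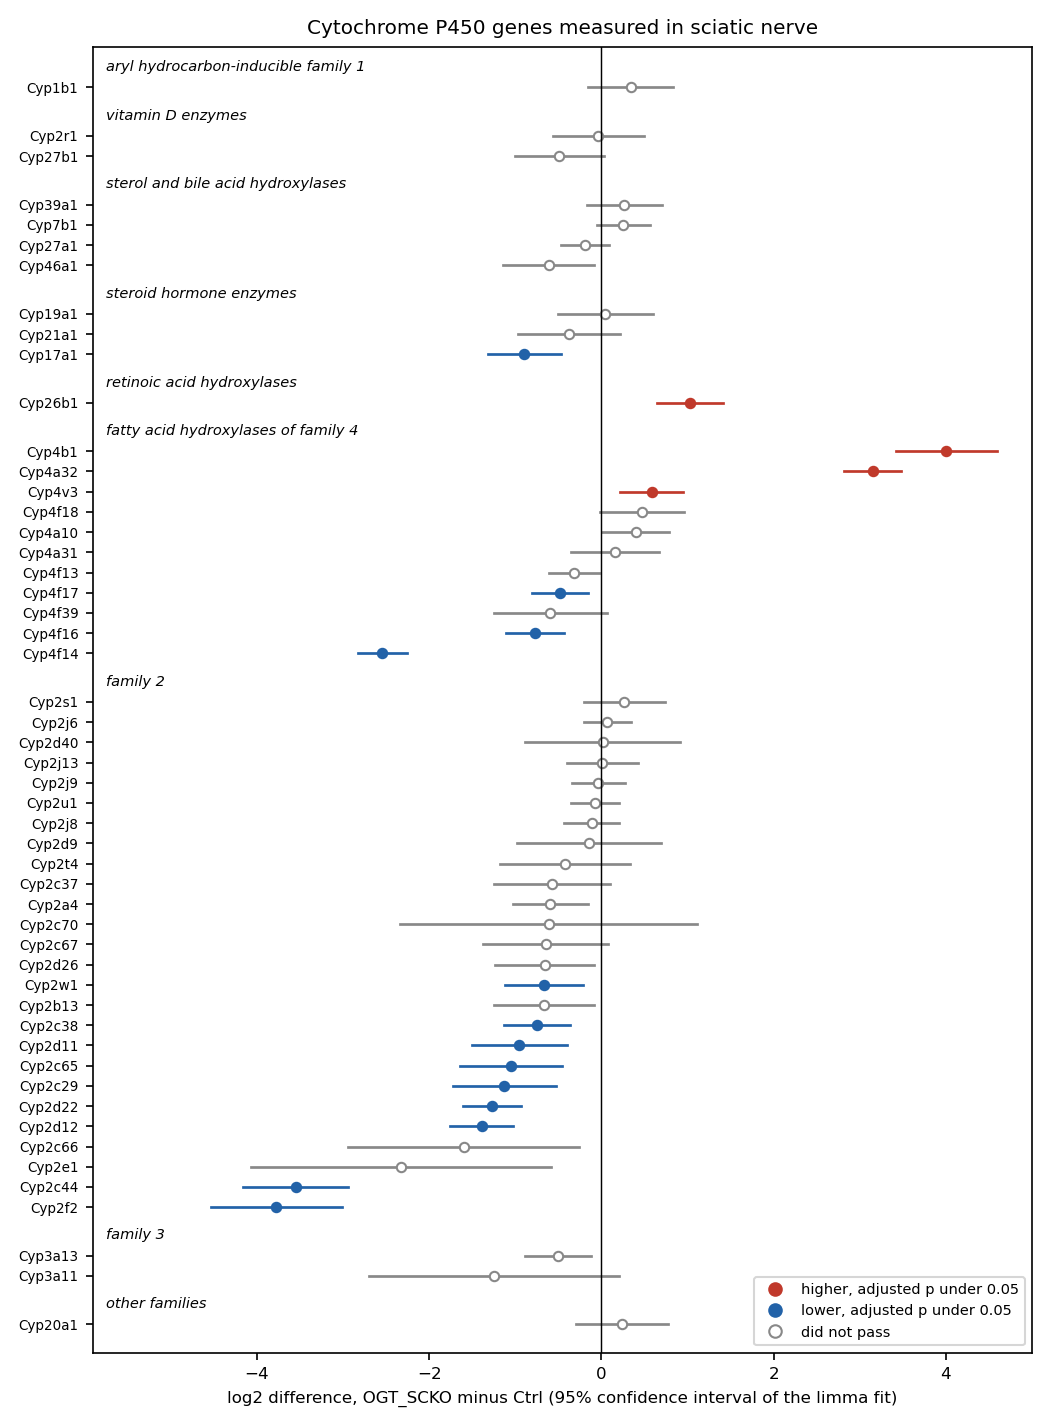
Log2 difference, OGT_SCKO minus Ctrl (x axis), with the 95% confidence interval of the limma fit, for the 51 P450 genes grouped by role; filled points passed the test at an adjusted p under 0.05 (red higher, blue lower) and open points did not. Cyp4b1 at 4.01 and Cyp4a32 at 3.15 stand to the right, and Cyp2f2 at -3.77, Cyp2c44 at -3.55 and Cyp4f14 at -2.54 to the left; Cyp4a32 in Ctrl and Cyp2f2 in OGT_SCKO were above background on no array, so their points are fitted values and not bounds.

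A gene well above background in 1 group alone passed the filter through that group, so the count was also taken over the 42 P450 genes well above background on all 6 arrays. Of these, 3 rose and 9 fell, against 10.0% and 12.1% of the 17787 genes with the same property. By mean signal over the pools, 31 P450 genes lay below the median of all genes. Of these 10 fell and 2 rose, against 12.8% and 13.2% of all genes there, with a median log2 difference of -0.61 against -0.08. Of the 20 above it 3 fell and 2 rose, against 11.52% and 9.13%, with a median of -0.01 against -0.07. OGT_SCKO 2, the brightest array, held the lowest value in 28 of the 51 genes (54.9%, against 39.1% of all genes), and Ctrl 2, the dimmest array, held the highest in 20 (39.2%, against 28.6%). The part of array brightness in the dim genes' values was not tested.

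The count of genes that fell depended on single pools. It was 7 without Ctrl 1, 6 without Ctrl 3 and 5 without OGT_SCKO 3. The share of all genes called went down too, from 23.3% to 12.8%, 11.05% and 10.4%. Within the slide that holds both groups, where Ctrl 2 is the only control, 3 fell and 2 rose, and 2.13% of all genes were called. With slide as a block 7 of the 17 calls were kept, those of Cyp4b1, Cyp4a32, Cyp4f14, Cyp2c44, Cyp2f2, Cyp2d12 and Cyp2d22. None of the 17 changed direction in any alternative, and Cyp4b1, Cyp4a32, Cyp4f14 and Cyp2c44 passed in every alternative that tested them. Leaving out OGT_SCKO 1 or OGT_SCKO 2 also brought in Cyp2c37, Cyp2c67, Cyp2d26, Cyp46a1, Cyp2a4, Cyp2c66 and Cyp4a10, and leaving out Ctrl 1 or Ctrl 2 brought in Cyp2e1 and Cyp2b13, each with 1 of these pools.

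Family 4 hydroxylates fatty acids and eicosanoids, mostly at the end of the chain, and moved both ways. Of 11 measured genes 3 rose and 3 fell, against 11.2% and 12.1% of all genes, and 5 did not pass. Cyp4b1, which also activates toxic furans and is best known from lung and kidney, changed most in the upward direction. Cyp4b1 read -2.87, -2.78 and -2.21 in the Ctrl pools and 1.04, 1.37 and 1.76 in the OGT_SCKO pools. All 3 knockout pools were above every control by more than 3 log2 units. The log2 difference was 4.01 (SE 0.24, adjusted p = 0.000232), 16.1 times the Ctrl level.

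Cyp4a32, a mouse gene of the Cyp4a fatty acid hydroxylases, is the gene next to Cyp4b1 on chromosome 4. Cyp4a32 read -6.38, -6.26 and -6.27 in Ctrl, where no array had it well above background, and -3.21, -3.34 and -2.91 in OGT_SCKO, where it was above on all 3. Its rise was at least 3.73-fold, the OGT_SCKO mean taken against the lowest signal well above background in Ctrl (limma adjusted p = 0.000134, fitted log2 difference 3.15, SE 0.14). With normexp the difference was 1.65, a smaller rise than this bound, and the gene still passed. The Cyp4a32 and Cyp4b1 genes lie on opposite strands and point towards each other, and their probes, at chr4:115294852-115294911 and chr4:115297406-115297465 in mm9, are separated by 2494 bases. On the other side of Cyp4a32, the log2 difference was 0.16 (SE 0.21, adjusted p = 0.61) for Cyp4a31 and 0.40 (SE 0.16, adjusted p = 0.12) for Cyp4a10. The Cyp4a10 probes disagreed: a second kept probe stood at -0.96 (SE 0.47, adjusted p = 0.177 over all probes), and a probe outside the filter read -7.15, -6.52 and -7.22 in Ctrl and -4.99, -5.04 and -5.18 in OGT_SCKO, where 1 of 3 arrays was well above background. Beyond Cyp4b1, Efcab14 stood at -0.66 (SE 0.15, adjusted p = 0.0237).

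The 30 bases at the start of each probe of the pair are shown to tell what was measured, 5′ to 3′ as on the array.
Cyp4b1: ctgtcttgagaaacttcatttatttctcat
Cyp4a32: agacccctaaaaactccaagatagttttcc
No probe of another P450 gene matched these probes at 85% or more of at least 30 overlapping bases, with no gaps allowed. Probes were compared only with probes, so a match to the rest of another transcript would not be seen. The probes of Cyp4a10 and Cyp4a31 overlap over 47 bases with 44 the same, so their signals may be shared. The stretch of both probes below has its mismatches in capitals.
Cyp4a10: atcttccctcctttctgcaataaagTtccC
Cyp4a31: atcttccctcctttctgcaataaagGtccA

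The promoters of 40 of the 51 genes were in the RefSeq sequence table (GRCm38.p6). Those of the neighbours Cyp4b1 (chr4:115647722-115647971, minus strand) and Cyp4a32 (chr4:115600688-115600937, plus strand) are printed to show how the pair that rose differs upstream. They cover the 250 bases before the start site, 5′ to 3′ on the gene's strand. Capitals mark TGANTCA, a loose form of the AP-1 motif with any base in the middle, searched on both strands. They also mark TATAA, the core of the TATA box, searched on the gene's strand.
Cyp4b1: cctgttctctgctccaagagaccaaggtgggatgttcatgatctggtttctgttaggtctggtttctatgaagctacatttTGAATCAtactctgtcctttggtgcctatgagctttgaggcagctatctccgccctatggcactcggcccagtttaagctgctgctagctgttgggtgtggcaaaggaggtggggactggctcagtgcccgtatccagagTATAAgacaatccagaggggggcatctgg
Cyp4a32: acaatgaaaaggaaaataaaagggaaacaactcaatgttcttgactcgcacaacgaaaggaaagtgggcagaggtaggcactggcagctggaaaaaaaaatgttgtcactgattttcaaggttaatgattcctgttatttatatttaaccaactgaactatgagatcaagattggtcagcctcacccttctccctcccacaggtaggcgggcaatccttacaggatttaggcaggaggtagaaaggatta
The Cyp4b1 window holds TGAATCA with its first base 169 bases before the start and TATAA 29 bases before it. The Cyp4a32 window holds neither. TGAGTCA, the AP-1 consensus, was found on neither strand in any of the 4 P450 genes that rose, Cyp4b1 included. TGANTCA occurred in 3 of the 40 P450 promoters (7.50%) and in 7.82% of the 27025 promoters of all genes. The consensus TGAGTCA occurred in 2 of 40 and in 5.16%. TATAA occurred in 17 of 40 (42.5%) against 18.4% of all promoters. These are matches of letters in a window, not sites shown to be bound.

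Cyp4v3, the mouse counterpart of the human gene mutated in Bietti crystalline dystrophy, read 0.13, -0.23 and 0.17 in Ctrl and 0.42, 0.75 and 0.66 in OGT_SCKO. The groups did not overlap, and the log2 difference was 0.58 (SE 0.15, adjusted p = 0.0382). The call was lost when any pool but OGT_SCKO 1 was left out (adjusted p = 0.0717 to 0.127).

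The Cyp4f genes, which hydroxylate leukotriene B4 and the side chains of vitamins E and K, lie in a cluster on chromosome 17. All 5 measured there had a negative log2 difference, and 3 fell, against 12.1% of all genes. The share of all genes with a negative difference was not counted, here or for the clusters below. Cyp4f14 read 0.04, 0.12 and 0.17 in Ctrl and -2.50, -2.55 and -2.25 in OGT_SCKO. The pools lay close together within each group, and far from those of the other. The log2 difference was -2.54 (SE 0.12, adjusted p = 0.000174), or 17.2% of the Ctrl level.
The Cyp4f14 promoter (chr17:32917357-32917606, minus strand, GRCm38.p6) is printed as that of the family 4 gene that fell most. Capitals mark the reverse strand of GCGTG, the core of the motif bound by the aryl hydrocarbon receptor.
Cyp4f14: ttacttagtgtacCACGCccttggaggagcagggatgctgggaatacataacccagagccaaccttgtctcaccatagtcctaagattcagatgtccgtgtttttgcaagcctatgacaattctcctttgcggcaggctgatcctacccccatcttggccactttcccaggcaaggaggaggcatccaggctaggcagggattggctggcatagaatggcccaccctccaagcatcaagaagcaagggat
GCGTG on both strands occurred in 10 of 40 P450 promoters (25.0%) and in 30.9% of all.

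Cyp4f16 read -0.33, -0.16 and -0.36 in Ctrl against -0.82, -1.26 and -1.08 in OGT_SCKO. Its groups were apart, with a log2 difference of -0.77 (SE 0.14, adjusted p = 0.0115). Cyp4f17 read 0.78, 0.84 and 0.73 against 0.45, 0.05 and 0.41, with OGT_SCKO 2 the lowest. The difference was -0.48 (SE 0.14, adjusted p = 0.0478), just inside the threshold. The Cyp4f16 call was lost without OGT_SCKO 3 (adjusted p = 0.0547), and the Cyp4f17 call without any pool but OGT_SCKO 1 (adjusted p = 0.0593 to 0.138). Cyp4f13, next to Cyp4f14, stood at -0.32 (SE 0.12, adjusted p = 0.10) and Cyp4f39 at -0.59 (SE 0.27, adjusted p = 0.16). On the other side of Cyp4f14 lie Zfp870 and then Zfp799, which are not P450 genes. Zfp870 stood at -1.06 (SE 0.14, adjusted p = 0.00325) and Zfp799 at -0.66 (SE 0.11, adjusted p = 0.00706). Zfp871, Zfp472, Zfp952 and Zfp763, also within 4 genes of Cyp4f14, did not pass. Cyp4f18, on chromosome 8 and apart from the cluster, stood at 0.47 (SE 0.20, adjusted p = 0.14).

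**Figure D2:**
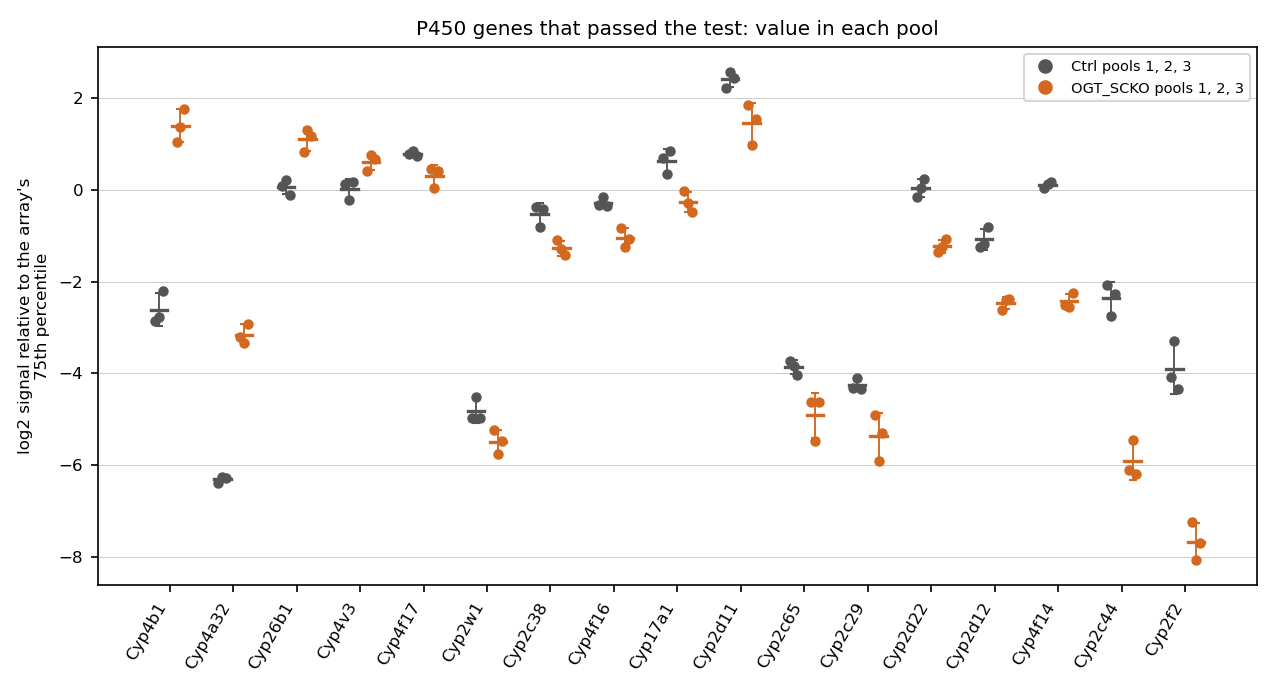
Log2 signal relative to the 75th percentile of the array (y axis) in each of the 6 pools for the 17 P450 genes that passed the test, ordered by their difference; points are pools 1, 2 and 3 from left to right, long bars are group means and whiskers are 1 SD (n = 3). The groups do not overlap in any of the 17, and Cyp4b1 is the gene with the widest gap above its Ctrl pools.

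Family 2, the largest, oxidises drugs, foreign compounds and arachidonic acid. Cyp2r1 is taken with the vitamin D enzymes below. Of the other 26 measured genes none rose and 9 fell, against 11.2% and 12.1% of all genes, and 17 did not pass. Their median log2 difference was -0.65. At an unadjusted p under 0.05 in limma, 14 of the 26 passed. The share of all genes at that looser threshold was not counted and lies above the 23.3% called. The same holds for the other counts at an unadjusted p given below. Cyp2f2 and Cyp2c44 had the most negative fitted differences, both against a knockout signal at or near background.

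Cyp2f2, which activates naphthalene in the club cells of the lung, read -4.08, -3.29 and -4.33 in Ctrl. In OGT_SCKO it read -7.24, -8.06 and -7.70, with no array well above background. The fall was at least 2.81-fold (adjusted p = 0.000688, fitted log2 difference -3.77, SE 0.32). With another background correction (normexp) the difference was -1.14, a smaller fall than the bound, and the call was lost (adjusted p = 0.194). Of 10 markers of club and epithelial cells, 4 were measured, with a summed signal of 3.47 to 3.78 in Ctrl and 3.80 to 4.37 in OGT_SCKO. Scgb1a1, the main secreted protein of club cells, stood at 0.62 (SE 0.11, adjusted p = 0.0103) and Krt14 at -0.99 (SE 0.25, adjusted p = 0.0345), while Scgb3a2, Sftpc, Foxj1, Epcam, Krt8 and Krt18 failed the background filter.
The Cyp2f2 promoter (chr7:27119705-27119954, plus strand, GRCm38.p6) is printed as that of a gene above background in every control pool and in no knockout pool, and holds none of the motifs searched.
Cyp2f2: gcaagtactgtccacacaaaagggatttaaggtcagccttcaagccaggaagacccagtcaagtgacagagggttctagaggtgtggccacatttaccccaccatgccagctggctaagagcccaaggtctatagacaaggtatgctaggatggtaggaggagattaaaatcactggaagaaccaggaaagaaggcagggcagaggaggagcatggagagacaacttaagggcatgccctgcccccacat

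Cyp2c44, named Cyp2c23 in the RefSeq table, is an epoxygenase of arachidonic acid. Cyp2c44 read -2.07, -2.75 and -2.26 in Ctrl and -6.11, -5.45 and -6.18 in OGT_SCKO, where 1 of 3 arrays was well above background. The groups were separated by more than 2 log2 units, with a fitted difference of -3.55 (SE 0.26, adjusted p = 0.000413). With normexp it was -1.84 and still passed.

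All 8 measured Cyp2c genes, several of which make epoxides of arachidonic acid, lie on chromosome 19 and had a negative difference. Of these 4 fell, against 12.1% of all genes. Cyp2c44 stands apart from the other 7, with no P450 gene among its 4 nearest neighbours on either side. Cyp2c38 read -0.38, -0.82 and -0.41 in Ctrl and -1.11, -1.30 and -1.43 in OGT_SCKO (log2 difference -0.74, SE 0.16, adjusted p = 0.0197). Cyp2c65 read -3.73, -3.83 and -4.03 against -4.63, -5.48 and -4.63 (log2 difference -1.05, SE 0.25, adjusted p = 0.0276). Cyp2c29 read -4.32, -4.10 and -4.33 against -4.91, -5.91 and -5.30, the latter well above background on no array, so its fall was at least 2.11-fold (adjusted p = 0.0223). In all 3 the groups were apart, and in Cyp2c65 and Cyp2c29 OGT_SCKO 2 was the lowest pool. The Cyp2c65 and Cyp2c29 calls were lost without any 1 of the Ctrl pools or OGT_SCKO 3 (adjusted p = 0.0525 to 0.0907), and that of Cyp2c38 without Ctrl 1, Ctrl 3 or OGT_SCKO 3 (adjusted p = 0.0728 to 0.0821). With normexp Cyp2c29 stood at -0.38 (adjusted p = 0.586), a smaller fall than the bound, and Cyp2c65 at -0.44 (adjusted p = 0.469).

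Cyp2c66 stood at -1.60 (SE 0.56, adjusted p = 0.0845), with OGT_SCKO 2 at -6.72 and the other knockout pools at -4.58 and -4.67, and without OGT_SCKO 2 at -0.90 (adjusted p = 0.0155). Cyp2c67 stood at -0.64 (SE 0.30, adjusted p = 0.17) and Cyp2c37 at -0.57 (SE 0.28, adjusted p = 0.18). Cyp2c70 was high in 1 pool only, with Ctrl 2 at 0.03 and the other 5 pools between -2.78 and -1.94. Its difference was -0.61 (SE 0.72, adjusted p = 0.56), and 0.28 without Ctrl 2. With slide as a block, which compares with Ctrl 2, it was -2.40 and passed (adjusted p = 0.016). The Cyp2c sequences are alike: the probe of Cyp2c67 shares 55 of 59 overlapping bases with a Cyp2c68 probe that was well above background on no array, and that of Cyp2c37 shares 35 of 40 with a Cyp2c50 probe outside the filter.

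**Figure D3:**
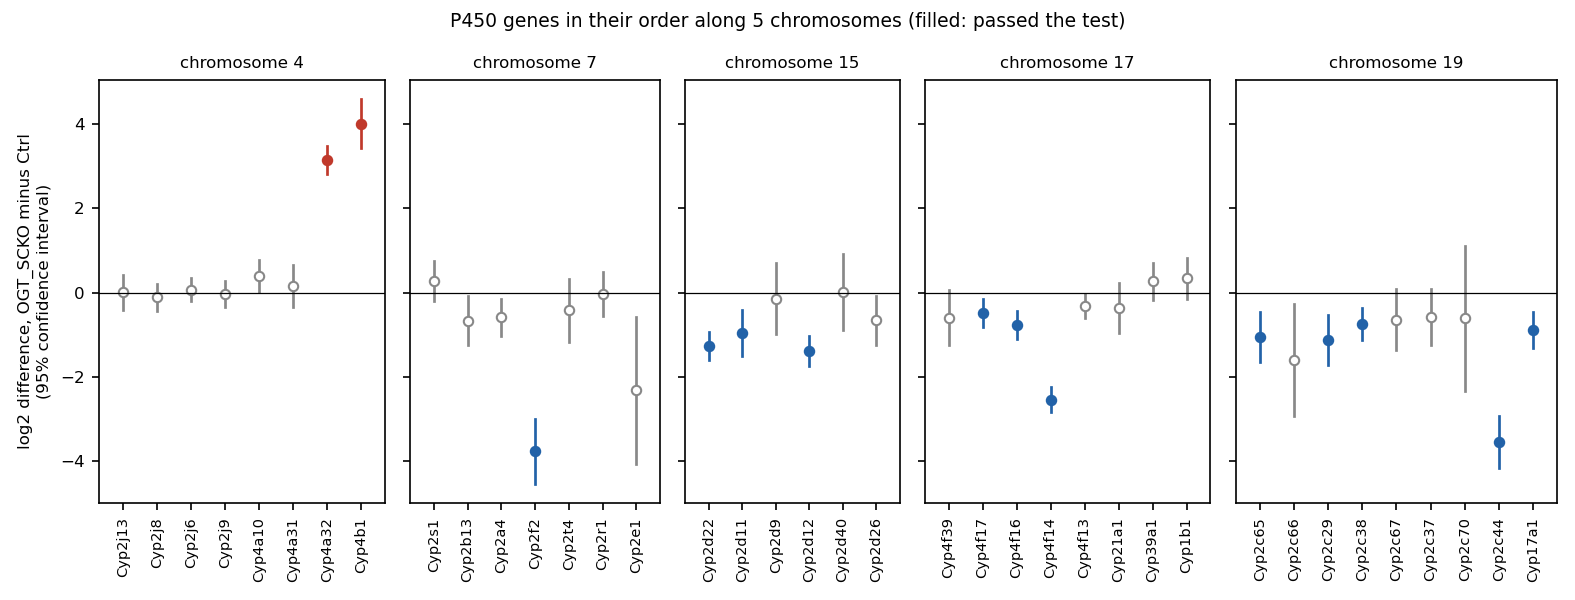
Log2 difference, OGT_SCKO minus Ctrl (y axis, 95% confidence interval of the limma fit), of the measured P450 genes on chromosomes 4, 7, 15, 17 and 19, in their order along each chromosome and not to distance; filled points passed the test. On chromosome 4 the last 2 genes, Cyp4a32 and Cyp4b1, stand above the rest, and on chromosome 19 every gene lies below 0.

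The Cyp2d genes, drug oxidases clustered on chromosome 15, had negative differences in 5 of 6, and 3 fell, against 12.1% of all genes. Cyp2d12 read -1.24, -1.18 and -0.81 in Ctrl and -2.63, -2.41 and -2.37 in OGT_SCKO (log2 difference -1.39, SE 0.15, adjusted p = 0.00175). Cyp2d22 read -0.16, 0.04 and 0.24 against -1.35, -1.26 and -1.07 (log2 difference -1.27, SE 0.14, adjusted p = 0.00191). Both were lower in every knockout pool by more than 1 log2 unit than the mean of Ctrl, and both lost the call only within the single slide. Cyp2d11 read 2.22, 2.56 and 2.43 against 1.84, 0.97 and 1.54, its lowest value again in OGT_SCKO 2 (log2 difference -0.95, SE 0.23, adjusted p = 0.0293). The Cyp2d11 call was lost without any 1 of the Ctrl pools or OGT_SCKO 3 (adjusted p = 0.0618 to 0.0949). Cyp2d26 stood at -0.66 (SE 0.24, adjusted p = 0.0956), while Cyp2d9 at -0.14 (SE 0.35) and Cyp2d40 at 0.01 (SE 0.38) had their highest value in Ctrl 2. Cyp2d13, just outside the filter with 2 of 3 Ctrl arrays well above background, read -4.39, -5.11 and -4.38 in Ctrl and -5.67, -5.87 and -5.60 in OGT_SCKO.

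Cyp2w1 read -4.98, -4.51 and -4.98 in Ctrl and -5.24, -5.76 and -5.47 in OGT_SCKO, with no array well above background there. Its fall was at least 1.48-fold (adjusted p = 0.0476), but with normexp the difference was -0.08, a smaller fall than the bound. This call was the least stable of the 17, lost in 12 of the 19 alternatives that tested it. Among these were each pool but OGT_SCKO 1 left out (adjusted p = 0.0851 to 0.129).

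The Cyp2j genes make epoxides of arachidonic acid. None of the 4 passed, nor did any at an unadjusted p under 0.05 in limma: Cyp2j8 stood at -0.11 (SE 0.13), Cyp2j6 at 0.07 (SE 0.11) and Cyp2j9 at -0.03 (SE 0.13). A second kept probe of Cyp2j6 stood at 0.32 (SE 0.18) and did not pass. Cyp2j13, represented by its brighter probe, stood at 0.01 (SE 0.17). Its second probe did not match that value. This probe read -1.46, -1.41 and -0.92 in Ctrl and -4.53, -4.50 and -4.46 in OGT_SCKO, all well above background, with a log2 difference of -3.23 (SE 0.16, adjusted p = 0.000159 over all probes, of which 23.5% passed). The brighter probe is mapped to chr4:95712305-95723288 in mm9, minus strand, a span far longer than its 60 bases, and the other to chr4:95723493-95723552, 204 bases farther upstream. The first 30 bases of each are shown because they gave different answers for 1 gene, the brighter probe first.
Cyp2j13: atgggcagtttaagaagagagaatcttttc
Cyp2j13: aaattctgagaatgggcaatagtgtccctc
Cyp2j13 is therefore reported as uncertain: 1 stretch of its transcript fell to 10.6% of Ctrl and the other did not pass.

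Cyp2e1 oxidises ethanol and acetone in liver and fat. Its brighter probe, which represents the gene, read -0.88, 1.56 and 1.41 in Ctrl and -1.51, -2.54 and -0.83 in OGT_SCKO. Ctrl 1 lay among the knockout pools, and the difference of -2.32 (SE 0.73, adjusted p = 0.0627) did not pass. Without Ctrl 1 it was -3.11 (adjusted p = 0.0172). The second probe of Cyp2e1 read -3.09, -0.24 and -0.28 in Ctrl and -5.21, -8.02 and -3.30 in OGT_SCKO, where 1 of 3 arrays was well above background. On this probe the groups did not overlap, and the difference of -4.31 (SE 1.28, adjusted p = 0.0521 over all probes) did not pass. Adipocyte markers varied in the same pools: their summed signal was 4.82, 21.9 and 18.4 times the 75th percentile in Ctrl and 2.39, 1.82 and 4.83 in OGT_SCKO. All 6 pools took the same rank for the brighter Cyp2e1 probe and for this sum, in which Ctrl 1 and OGT_SCKO 3 were nearly tied. On the second probe these 2 pools stood in the reverse order. Of 10 measured adipocyte markers 5 fell, against 12.1% of all genes. Adipoq was among them, at -4.24 (SE 1.02, adjusted p = 0.0289). The other 5 did not pass: Cfd stood at -4.18, Plin1 at -1.98, Pparg at -0.53, Lipe at -0.21 and Plin4 at -0.01. Lep and Ucp1 were not well above background on all arrays of either group. The part of adipocyte RNA in the Cyp2e1 values was not tested.

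**Figure D4:**
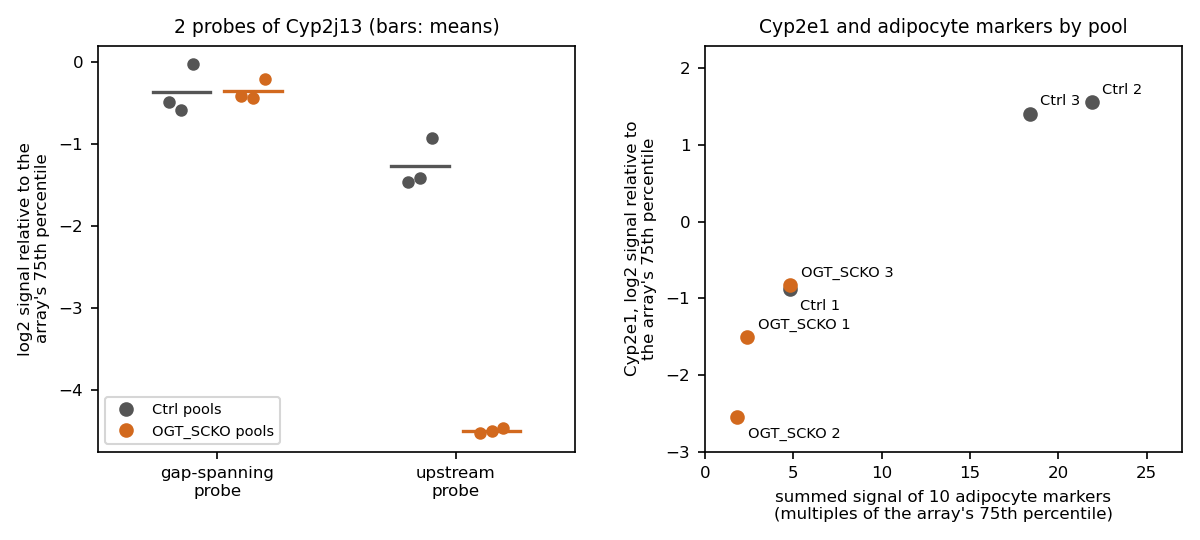
Left, log2 signal relative to the 75th percentile of the array for the 2 kept probes of Cyp2j13 in each pool, with group means as bars: the brighter, gap-spanning probe overlaps between groups and the upstream probe does not. Right, the same quantity for the brighter probe of Cyp2e1 (y axis) against the summed signal of 10 adipocyte markers (x axis), 1 point per pool. The sum is in multiples of the 75th percentile. Ctrl 2 and Ctrl 3 stand apart, and Ctrl 1 lies beside OGT_SCKO 3.

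The remaining family 2 genes did not pass. Cyp2a4 stood at -0.59 (SE 0.18, adjusted p = 0.0601) and Cyp2b13 at -0.67 (SE 0.24, adjusted p = 0.0951). Cyp2t4, the gene next to Cyp2f2, stood at -0.42 (SE 0.32). Cyp2s1, which acts on retinoids and eicosanoids, stood at 0.27 (SE 0.20). Cyp2u1, a hydroxylase of long-chain fatty acids, stood at -0.08 on its brightest probe (SE 0.12, 95% confidence interval -0.36 to 0.20). Its other kept probes stood at -0.40 (SE 0.18), outside that interval, and at 0.02 (SE 0.30), and did not pass.

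Retinoic acid is inactivated by the Cyp26 enzymes. Cyp26b1 rose: it read 0.08, 0.22 and -0.10 in Ctrl and 0.82, 1.29 and 1.16 in OGT_SCKO. All knockout pools were above all controls, with a log2 difference of 1.03 (SE 0.16, adjusted p = 0.00633). With slide as a block, where Ctrl 2 is the only control to compare with, it was 0.88 and the call was lost (adjusted p = 0.0838). Cyp26a1 and Cyp26c1 were not well above background on all arrays of either group. Of 14 measured genes of the retinoid pathway 2 rose and 2 fell, against 11.2% and 12.1% of all genes. Rdh5, a retinol dehydrogenase, stood at 1.29 (SE 0.14, adjusted p = 0.00181) and Crabp1, which carries retinoic acid in the cytosol, at 1.20 (SE 0.16, adjusted p = 0.00409). Dhrs3, which reduces retinaldehyde back to retinol, stood at -0.87 (SE 0.15, adjusted p = 0.00885), and Rarg, a retinoic acid receptor, at -0.42 (SE 0.11, adjusted p = 0.0367).

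Of the steroid hormone enzymes, 3 were measured and 1 fell, against 12.1% of all genes. Cyp17a1, the 17-alpha-hydroxylase that opens the route to androgens, read 0.68, 0.34 and 0.85 in Ctrl and -0.04, -0.28 and -0.49 in OGT_SCKO. The groups did not overlap and the difference was -0.89 (SE 0.18, adjusted p = 0.0153), a call lost without Ctrl 1, Ctrl 3 or OGT_SCKO 3 (adjusted p = 0.0587 to 0.0637). With slide as a block it was -0.61 (adjusted p = 0.155). Cyp21a1, the 21-hydroxylase, stood at -0.37 (SE 0.25, adjusted p = 0.30) and Cyp19a1, the aromatase, at 0.04 (SE 0.23, adjusted p = 0.90). Cyp11a1, Cyp11b1, Hsd3b1 and Mc2r were not well above background on all arrays of either group, so the first step of the Schwann cell route was not measured. Among 18 measured genes of steroid synthesis 1 rose and 2 fell, against 11.2% and 12.1% of all genes. Srd5a1, the 5-alpha-reductase, stood at 1.18 (SE 0.16, adjusted p = 0.00442), Hsd17b4 at -0.44 (SE 0.11, adjusted p = 0.0289) and Srd5a3 at -0.46 (SE 0.13, adjusted p = 0.0483).

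The other 10 P450 genes, in the sterol, vitamin D, aryl hydrocarbon, family 3 and orphan groups, did not pass, and 2 of them had an unadjusted p under 0.05 in limma. Among those that hydroxylate cholesterol and oxysterols, Cyp7b1 stood at 0.26 (SE 0.13, adjusted p = 0.19), Cyp39a1 at 0.27 (SE 0.18), Cyp27a1 at -0.19 (SE 0.12) and Cyp46a1 at -0.61 (SE 0.22, adjusted p = 0.0909). Of 9 other measured genes of that route none was called by limma, and 1 had an unadjusted p under 0.05. Of the vitamin D enzymes, the 25-hydroxylase Cyp2r1 stood at -0.04 (SE 0.22) and Cyp27b1, which makes the active hormone, at -0.49 (SE 0.22, adjusted p = 0.14). A second Cyp2r1 probe, just outside the filter, read -6.12, -6.56 and -6.71 in Ctrl and -4.99, -4.25 and -4.95 in OGT_SCKO, where 2 of 3 arrays were well above background. Cubn, which takes up vitamin D with its carrier, rose by 0.57 (SE 0.13, adjusted p = 0.0237). It was 1 of 4 measured genes of that list, against 11.2% of all genes.

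Cyp1b1, the measured gene of the family induced through the aryl hydrocarbon receptor, stood at 0.34 (SE 0.21, adjusted p = 0.26), and Cyp1a1 and Cyp1a2 were not well above background on all arrays of either group. The receptor itself, Ahr, stood at -0.75 (SE 0.17, adjusted p = 0.0242). In family 3, the drug oxidases, Cyp3a13 stood at -0.50 (SE 0.16, adjusted p = 0.0658) and Cyp3a11 at -1.24 (SE 0.61, adjusted p = 0.18), with OGT_SCKO 2 at -7.08 and the other 5 pools between -4.97 and -4.12. Cyp20a1, an orphan, stood at 0.24 (SE 0.22). None of 11 measured xenobiotic nuclear receptors was called, with 3 at an unadjusted p under 0.05. Of 10 liver markers 6 were measured, with a summed signal of 5.63 to 7.17 in Ctrl and 3.61 to 7.35 in OGT_SCKO. Apoh stood at 2.21 (SE 0.41, adjusted p = 0.0122) and Ttr at -1.55 (SE 0.29, adjusted p = 0.0129), the other 4 measured did not pass, and Alb, Apoa1, Fga and Fgb failed the background filter.

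Partners of the P450 enzymes were taken next. Of 12 measured electron donors and heme-binding partners 1 rose and 1 fell, against 23.3% of all genes called. The gene that rose was a partner and not a donor: Pgrmc2, which binds heme, stood at 0.62 (SE 0.15, adjusted p = 0.0278). Cyb5r2, a cytochrome b5 reductase, stood at -1.77 (SE 0.13, adjusted p = 0.000452). With normexp Cyb5r2 was -0.94 and lost its call (adjusted p = 0.0552). Por, the common reductase, was measured and stood at 0.10. None of 15 genes of heme synthesis and breakdown was called by limma. An unadjusted p under 0.05 was seen in 7, a count with no share over all genes beside it.

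Enzymes that share substrates with the P450s moved both ways. Of 17 measured genes of arachidonic acid release and use, 2 rose and 2 fell. Pla2g4a, the phospholipase that frees arachidonic acid, stood at 1.65 (SE 0.18, adjusted p = 0.00184) and Alox12, a lipoxygenase, at 0.93 (SE 0.18, adjusted p = 0.0135). Alox12 was dim, well above background on 2 of the 3 Ctrl arrays and on all 3 OGT_SCKO arrays, and its call was lost with normexp. Ptgds, a prostaglandin D synthase, stood at -0.74 (SE 0.18, adjusted p = 0.0313) and the cyclooxygenase Ptgs1 at -0.38 (SE 0.10, adjusted p = 0.0382). Of 16 other oxidising and conjugating enzymes 1 rose and 3 fell. Aox1, an aldehyde oxidase, stood at 1.09 (SE 0.12, adjusted p = 0.00168), Fmo5, a flavin monooxygenase, at -1.03 (SE 0.12, adjusted p = 0.00206), and Nat2, an acetyltransferase, at -0.96 (SE 0.11, adjusted p = 0.00207). Over the 10 pathway lists together, 8 of 121 measured genes rose and 12 fell, against 11.2% and 12.1% of all genes. Of the calls named from these lists, those of Ahr, Alox12, Cubn, Hsd17b4, Pgrmc2, Ptgds, Ptgs1, Rarg and Srd5a3 were lost without Ctrl 1 and without Ctrl 3, and that of Srd5a3 without any 1 of the 6 pools.

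Markers of other cells differed beside these results. The skeletal muscle sum was 5.47 to 6.69 in Ctrl and 2.35 to 4.02 in OGT_SCKO, with 5 of 8 measured markers lower, and the endothelial sum 36.3 to 40.4 and 24.3 to 30.3, with 2 of 10 lower. The fibroblast sums overlapped, at 389 to 627 and 262 to 464, although 2 of 10 markers were lower. The perineurial and barrier sums overlapped too, at 80.8 to 106 and 67.6 to 93.8, with 2 of 8 markers lower. Of 10 mural markers 1 rose and 2 fell, and of 10 macrophage markers 1 rose and 1 fell. Over all genes 11.2% rose and 12.1% fell. The part of these cells in the P450 values was not tested.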

How the data were processed

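Agilent Feature Extraction 11.5.1.1 read the red channel and subtracted background, per the file headers. The deposited intensity values were not scaled between arrays, and other deposited columns are flags. The authors' deposited log2 table has equal quantiles in each column and served as an alternative. Each array held 43020 spots for 39429 probes; the number of arrays limits the precision, and no spot was saturated. Control and outlier spots were left out, spots of a probe averaged, and log2 processed signals taken relative to each array's 75th percentile. Probes were renamed through RefSeq accessions where matched (27655 probes). The kept probe of highest mean stood for a gene. Both groups were fitted with limma 3.58.1 in R 4.3.3 (lmFit, eBayes, Benjamini-Hochberg over 19051 genes, call at an adjusted p under 0.05), tested on simulated data. An exact permutation test of 3 against 3 cannot go below 0.10. A group dim on all its arrays gives a bound, set by the lowest signal well above background. Such a bound rests on the main background subtraction. With normexp the differences of Cyp4a32, Cyp2f2, Cyp2c29 and Cyp2w1 were smaller than their bounds. Every P450 gene is named, with up to 3 called genes per pathway list by p; Rarg and Ptgs1 were named after their values were seen. 1 gene that this rule names is not reported here. Members and lists were chosen with earlier results of these data known. Alternatives covered scaling, background, filter, probe choice, slide, replicate number, variance model, threshold and each pool left out.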

Additional observations from a re-analysis of the deposited data

How the results depend on the processing

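The P450 counts were 4 higher and 13 lower, with 4437 genes called in all and 8 higher and 12 lower in the pathway lists. Within slide 1 they were 2 and 3, 406, 1 and 1, and with slide as a fixed block 2 and 6, 1226, 5 and 3, the 6 including Cyp2c70. Without the filter on dim probes they were 3 and 7, 2629, 6 and 5, with normexp 3 and 8, 2722, 7 and 8, and at an adjusted p under 0.01 3 and 5, 1738, 5 and 4. Scaling by quantiles gave 4 and 14, 4922, 12 and 16, the random slide block 4 and 15, 5239, 11 and 18, and every kept probe 4 and 14, 5713, 11 and 18. The pathway lists had 10 and 17 with the trend and robust variance model. With 1 pool left out, the P450 counts ran from 3 to 4 higher and from 5 to 17 lower, all genes from 1975 to 5632 and the pathway lists from 5 to 11 higher and from 5 to 18 lower. The replicate block gave 3 and 5, 1479, 5 and 4. Same-numbered pools correlated at -0.27, -0.53 and 0.06 in their deviations from the group mean, which cannot tell whether the numbers pair the samples. The mean of both kept probes turned Cyp2j13 to -1.61 (adjusted p = 0.00134), as its second probe fell. Cyp4b1 and Cyp4f14 kept their calls in all 20 settings, Cyp4a32 and Cyp2c44 in the 19 that tested them, Cyp2f2 lost its call with normexp alone, and Cyp2d12 and Cyp2d22 within slide 1 alone. The cause of the other changes was not tested.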
